A study of Mus musculus with 4 samples.

Results

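10 genes of the NF-κB system were followed in cells of the mouse lymph node. They are the subunit genes Nfkb1, Nfkb2, Rel and Relb, the inhibitor genes Nfkbia and Nfkbie, the nuclear IκB genes Nfkbid, Nfkbiz and Bcl3, and Tnfaip3. These 10 genes were taken by name out of the 32285 genes counted in each library, with earlier results of these data known. All libraries came from wildtype C57BL/6 mice, 2 from control animals and 2 from animals given a total of 100 µg of extracellular vesicles (EVs) from induced pluripotent stem cells (iPSCs) under the skin. EVs are small membrane-bound particles that cells release, with protein and RNA of their cell of origin. The sample labels record no treatment for the control and 24 h for every library, whereas the study's methods give PBS for the control and the series' design text gives 5 days before the draining nodes were taken. Cells were profiled by droplet 3′ single-cell RNA sequencing, 1 library per sample. Each value below rests on sums of UMIs (unique molecular identifiers, 1 per captured mRNA molecule) over the cells of 1 class in 1 library. B cells were taken as cells with a Cd79a UMI and no Cd3e UMI. CD4 and CD8 T cells had UMIs of Cd3e and of either Cd4 or Cd8a, with none of the other and none of Cd79a. Macrophages had at least 2 UMIs of C1qa and C1qb together, dendritic cells at least 1 of Fscn1, and both had no Cd3e. Dendritic cells without an Fscn1 UMI were thus left out, and the values below do not cover them. Levels are given as CPM, the UMIs of a gene scaled to a common total count for every sum, with TMM normalization (the trimmed mean of M-values).

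NF-κB is a family of transcription factors whose dimers are held in the cytoplasm by IκB proteins until signals from antigen receptors, Toll-like receptors or TNF-family receptors lead to the breakdown of the inhibitor. Nfkb1 and Nfkb2 encode precursors that are processed to DNA-binding subunits, and Rel and Relb encode subunits with an activation domain. Many genes of the system are themselves targets of NF-κB, among them the inhibitors and the ubiquitin-editing enzyme Tnfaip3, which closes a negative feedback loop. In lymph nodes NF-κB is best known for its part in lymphocyte activation and survival and in the maturation of dendritic cells.

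Since feedback in this system is known to run through κB sites near the start of these genes, the sequence before the start is shown for 4 members, with matches to the κB consensus in capitals. The consensus was searched on both strands of the RefSeq promoter windows (GRCm38.p6), which hold 250 bases before and 50 after each annotated start. Bcl3 is on the minus strand (gene at chr7:19808462-19822770), and the run at chr7:19822744-19823005 ends 12 bases after its RefSeq start. The other 3 end at the base before the start, at chr12:55492648-55492897 (minus strand) for Nfkbia, chr11:23770970-23771219 (minus strand) for Rel and chr17:45555450-45555699 (plus strand) for Nfkbie.
Bcl3: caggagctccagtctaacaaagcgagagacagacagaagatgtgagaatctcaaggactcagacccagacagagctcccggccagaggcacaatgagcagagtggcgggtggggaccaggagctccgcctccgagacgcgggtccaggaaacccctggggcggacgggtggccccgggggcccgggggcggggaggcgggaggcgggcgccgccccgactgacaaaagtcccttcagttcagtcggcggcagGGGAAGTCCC
Nfkbia: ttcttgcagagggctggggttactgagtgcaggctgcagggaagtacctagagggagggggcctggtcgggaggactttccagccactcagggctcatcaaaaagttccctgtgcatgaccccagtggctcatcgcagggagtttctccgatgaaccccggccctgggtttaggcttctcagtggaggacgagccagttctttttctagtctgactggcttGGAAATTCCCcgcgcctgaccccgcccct
Rel: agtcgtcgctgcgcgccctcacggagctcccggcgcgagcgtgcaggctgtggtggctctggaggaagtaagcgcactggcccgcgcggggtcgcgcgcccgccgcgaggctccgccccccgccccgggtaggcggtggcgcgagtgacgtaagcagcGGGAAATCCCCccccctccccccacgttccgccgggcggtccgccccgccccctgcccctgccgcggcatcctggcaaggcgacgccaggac
Nfkbie: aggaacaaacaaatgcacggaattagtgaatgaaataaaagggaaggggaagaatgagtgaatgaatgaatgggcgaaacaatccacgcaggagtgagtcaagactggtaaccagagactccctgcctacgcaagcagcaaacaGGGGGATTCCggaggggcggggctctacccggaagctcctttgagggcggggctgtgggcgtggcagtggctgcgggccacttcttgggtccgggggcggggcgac
The match of Bcl3, GGGAAGTCCC, begins at base 3 after the start and reads as a match on both strands. That of Nfkbia, GGAAATTCCC, begins 29 bases before the start and lies on the opposite strand. Rel has overlapping matches 92 and 91 bases before its start, and Nfkbie has GGGGGATTCC 106 bases before. Of the other members, Nfkb2 holds GGGAATTCCC and GGGGCTTTCC at 39 and 11 bases before the first of its 3 starts, Tnfaip3 holds GGAAATCCCC at 12 bases, and Nfkbid holds GGGACTTCCC at 226 bases before its second start. All 7 members with an entry among the promoter windows thus held a match in at least 1 window, where 9.55% of the 27025 genes and 8.46% of the 32851 promoters did. A match describes the letters only and does not show that a factor binds there. No window was used for Nfkb1, Relb and Nfkbiz.

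The 4 libraries held between 50749656 and 70418672 UMIs, and 7891 to 8529 cells per library passed the filters on cells (between 200 and 5000 genes, no more than 20000 UMIs and a mitochondrial share below 10%). B cells were 37.0% and 31.7% of the cells in control libraries 1 and 2 and 59.6% and 50.4% in EV libraries 1 and 2. B and T cells were well covered, with 923 to 4866 cells per class and library, whereas the macrophage gate held only 42 to 91 cells and the dendritic gate 72 to 123. Every gate had all 8 markers of its class detected in each library, except that CD4 T and CD8 T cells were checked with the 8 shared T cell markers. Detection does not set the gates apart, since all 8 B cell markers were also detected in every other gate. The macrophage and dendritic gates were mixed: 11.9% to 23.9% of the cells in the former and 13.8% to 23.6% in the latter also had a Cd79a UMI. Cells in more than 1 gate held much of the macrophage UMIs. Exclusive gates, which leave such cells out, took these from 70039 and 176991 to 37890 and 114495 in the control. In EV they went from 269393 and 211354 to 121273 and 72565. In the full macrophage gate, B cell markers summed to 3741 and 3548 CPM in the control and 6058 and 7059 CPM in EV. Macrophage markers there summed to 4483 and 2887 against 3222 and 2773 CPM. The summed level of 4 nuclear or rRNA-like transcripts that vary with RNA quality (Gm42418, AY036118, Malat1 and Neat1) was lower in EV in all 5 classes without overlap. The sum was 33052 and 30267 against 24985 and 22038 CPM in B cells. Its parts were not uniform. Gm42418 in B cells fell to 836.71 CPM in EV library 2 but only to 5573.8 in EV library 1, from 8390.2 and 9628.5 in the control. Malat1 overlapped between the groups in B cells and macrophages, and was lower in EV without overlap in CD4 T, CD8 T and dendritic cells. The part of these transcripts in the results was not tested. Monocyte, plasma, NK and stroma markers (4 genes each) summed in B cells to 44.1 to 95.3, 286 to 329, 0.51 to 23.1 and 429 to 571 CPM. The stroma sum was nearly all Pecam1 (429 to 571 CPM), while Col1a1, Col1a2 and Lyve1 were each at most 0.096 CPM. The monocyte sum was higher in EV B cells without overlap (44.1 and 46.8 against 95.3 and 54.3 CPM). Libraries shared 12 to 26 cell barcodes in pairs, and nothing in the labels says whether the samples of a group were separate animals, so p-values measure the spread between these libraries.

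The members differed in where they were high. These levels were set on 1 common TMM scale over all 20 sums of class and library, and neighbouring classes were compared in 1 edgeR fit with library as a block. Cells in more than 1 gate counted in each of its sums, so macrophage and dendritic levels are those of mixed gates. The levels were not compared with exclusive gates. Relb, the subunit paired with the Nfkb2 product in the non-canonical pathway, was the gene with the widest separation. It reached 729 ± 90 CPM (SD, n = 4 libraries) in the dendritic cells of the Fscn1 gate. Macrophages held 149 ± 50, B cells 90.1 ± 8.3, CD8 T cells 47.2 ± 5.1 and CD4 T cells 43.6 ± 7.7 CPM. Dendritic cells exceeded macrophages by 2.44 on the log2 scale (SE 0.16, edgeR adjusted p = 3.7e-11). The CD8 and CD4 T cell levels of Relb were not separated (difference 0.12, SE 0.09, edgeR adjusted p = 0.36).

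Rel, the subunit c-Rel of lymphocyte activation, stood at 460 ± 88 CPM in dendritic cells and 425 ± 33 in B cells, levels that overlapped (edgeR adjusted p = 0.31). It was lower in macrophages, at 199 ± 74 CPM, and lowest in CD4 and CD8 T cells, at 84.2 ± 4.0 and 67.8 ± 4.8. Every step below B cells was called, down to CD4 over CD8 T cells, 0.31 on the log2 scale (SE 0.09, edgeR adjusted p = 0.013). Nfkb1 varied least among the subunits, between 206 ± 22 CPM in CD8 T cells and 372 ± 92 in dendritic cells. Nfkb2 split the classes, with 52.4 ± 4.9 CPM in B cells and 16.4 ± 2.1 and 15.5 ± 0.90 in CD8 and CD4 T cells, a step of 1.67 (SE 0.083, edgeR adjusted p = 2.0e-15). Its levels in dendritic cells (105 ± 17) and macrophages (77.8 ± 12.6) were not separated from each other (edgeR adjusted p = 0.16).

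Nfkbia, the classical inhibitor IκBα, was highest in dendritic cells at 550 ± 174 CPM, followed by macrophages at 281 ± 66, B cells at 221 ± 16, CD4 T cells at 159 ± 16 and CD8 T cells at 140 ± 13. Nfkbie, which encodes the inhibitor IκBε, was at 82.9 ± 27.5 CPM in dendritic cells and 44.2 ± 2.6 in B cells, and at 17.3 ± 0.66 and 15.1 ± 1.4 in CD8 and CD4 T cells. Nfkbid, a nuclear IκB needed for marginal zone and B-1 B cells, was the member highest in B cells, at 69.5 ± 11.5 CPM against 42.0 ± 14.1 in dendritic cells (0.77 on the log2 scale, SE 0.20, edgeR adjusted p = 0.0025, ranges overlapping). Tnfaip3 ran the other way, from 127 ± 25 CPM in dendritic cells over 68.8 ± 14.5 and 64.8 ± 15.9 in CD8 and CD4 T cells to 21.4 ± 2.6 in B cells. Nfkbiz varied little, with 5 means between 61.7 and 82.3 CPM and none of its 4 neighbouring steps called, though CD4 T cells stood above B cells by 0.26 on the log2 scale, and CD8 T and dendritic cells stood at −0.31 and −0.43 relative to CD4 T cells (edgeR adjusted p = 0.0052, 0.0036 and 0.023). Bcl3 had means of 40.9 to 53.2 CPM in dendritic cells, B cells and macrophages and of 21.5 ± 12.3 and 16.2 ± 11.4 in CD4 and CD8 T cells, with SDs that hold the group difference described below. In all, 18 of the 40 neighbouring steps of the 10 members were called. Of all 13849 genes, 24.4% were called between dendritic cells and macrophages, 25.7% between the T cell classes, 33.7%, 38% and 38.8% between macrophages and B, CD4 T and CD8 T cells, 53.3% and 58.7% between dendritic cells and B and CD8 T cells, and 62.2% and 65.2% between B cells and CD4 and CD8 T cells.

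**Figure D1:**
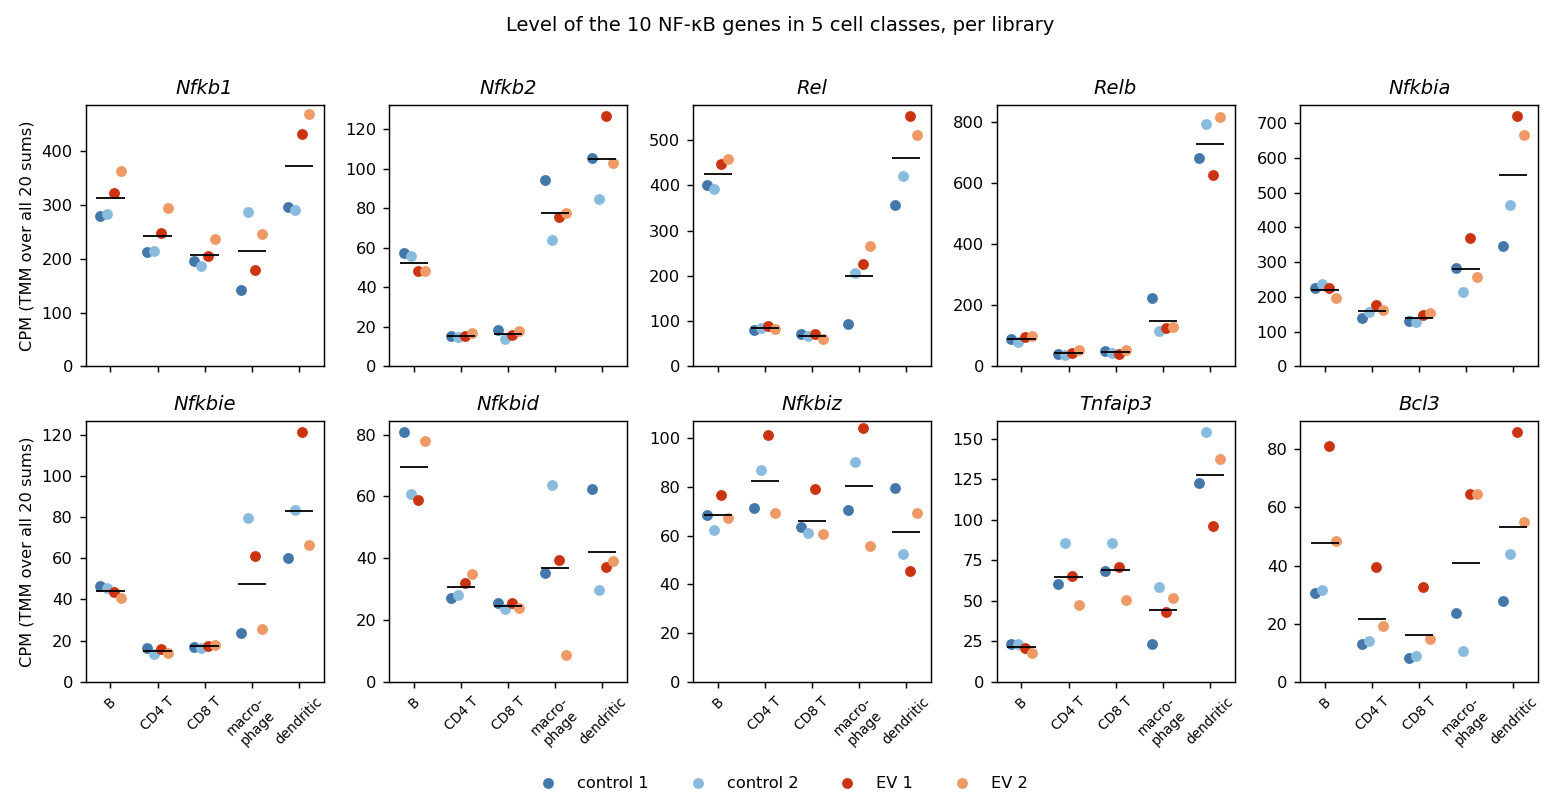
Level of the 10 genes (CPM on the common TMM scale, linear axis from 0) in each of 5 cell classes; each point is 1 of the 4 libraries and the bar is their mean. Relb stood at 729 CPM in dendritic cells and under 150 CPM on average elsewhere, Rel was high in B and dendritic cells, and Tnfaip3 was lowest in B cells at 21.4 CPM.

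The comparison of EV with control addressed which immune genes the vesicles altered in the node. Bcl3 was the member that rose. It was higher in both EV libraries than in both control libraries in all 5 classes, and it passed the test (edgeR, adjusted p under 0.05) in B cells and in CD8 T cells. The 5 classes come from the same 4 libraries, and 18% to 25.6% of all genes per class were higher in this way. No other member was called in any class in this main fit, which used all 4 libraries, the filter on low counts and no replicate block. Some were called in alternatives, as given below. Further calls in fits with a library left out are not listed and are not read as support. The members called were 1 of 10 in B cells, where 2.55% of 13270 genes were called (1.57% higher in EV), 0 of 10 in CD4 T cells (1.09% of 11933), 1 of 10 in CD8 T cells (2.2% of 12284, 1.34% higher in EV), 0 of 9 tested in macrophages (0% of 3497) and 0 of 10 in dendritic cells (0.148% of 7421). At an unadjusted p under 0.05, edgeR gave 4, 5, 4, 1 and 3 members in this order, against 18.9%, 16.7%, 18.2%, 9.04% and 7.65% of all genes. DESeq2 called 0 members in every class. Since the members were chosen with earlier results of these data known, these shares do not test the members as a set.

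Bcl3 encodes an IκB-like protein that stays in the nucleus and can act as a co-activator with the homodimers of the Nfkb1 and Nfkb2 products. B cells of control libraries 1 and 2 held 29.9 and 30.9 CPM of Bcl3, and those of EV libraries 1 and 2 held 80.5 and 47.7 CPM, from 418, 420, 2456 and 1251 UMIs. In CD8 T cells the same libraries held 7.65, 8.16, 29.9 and 13.5 CPM, from 101, 137, 304 and 177 UMIs. In CD4 T cells they held 12.6, 13.4, 37.9 and 18.5 CPM, from 113, 158, 298 and 187 UMIs. In each of these classes the control libraries were nearly equal, both EV libraries were above them, and EV library 1 was above EV library 2. The change was 2.11-fold in B cells (log2 1.08, SE 0.21, n = 2 per group, edgeR adjusted p = 0.040) and 2.69-fold in CD8 T cells (log2 1.43, SE 0.28, edgeR adjusted p = 0.023). In CD4 T cells it was 2.13-fold and missed the threshold (log2 1.09, SE 0.27, edgeR adjusted p = 0.081).

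The size of the Bcl3 change rested much on EV library 1. Leaving it out gave log2 changes of 0.65 for B, 0.52 for CD4 T and 0.78 for CD8 T cells, whereas leaving out EV library 2 gave 1.40, 1.55 and 1.91. Without control library 1 or 2 the call in B cells was lost (log2 1.05 and 1.10). In CD4 T cells the changes without control libraries 1 and 2 were 1.06 and 1.15. A group left with 1 library has no spread of its own, so calls from such fits are not read as support in CD4 T cells. DESeq2 gave changes of 1.08, 1.12 and 1.46 in B, CD4 T and CD8 T cells, with adjusted p = 0.076 in B, 0.49 in CD4 and 0.24 in CD8 T cells. Across all alternatives the log2 change stayed above 0, between 0.65 and 1.40 in B cells, 0.52 and 1.55 in CD4 and 0.78 and 1.91 in CD8 T cells, with adjusted p up to 0.078, 0.49 and 0.24. In B cells, where monocyte markers were also higher in EV library 1 (95.3 CPM) than in EV library 2 (54.3 CPM) and the control libraries (44.1 and 46.8 CPM), the part of monocyte transcripts in the Bcl3 values was not tested. Neutrophil markers (4 genes) summed to 33.2 CPM in CD4 T cells of EV library 1 and to at most 0.90 CPM in those of the other libraries, and their part in the Bcl3 values was not tested. The antisense genes Gm16175 and Gm16174 overlap Bcl3 on the other strand. Over all cells of a library, without gates, Bcl3 stood at 16.6 and 16.8 CPM in the control and 61.2 and 30.8 CPM in the EV libraries. B cells held more Bcl3 than CD4 and CD8 T cells (means of 47.9 against 21.5 and 16.2 CPM) and were a larger share of the EV libraries. A shift in cell types and a change in RNA per cell cannot be told apart in this ungated value.

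In the macrophage gate the Bcl3 counts were 2 and 2 UMIs in the control and 18 and 15 UMIs in the EV libraries, which came to 34.3, 13.7, 74.9 and 77.1 CPM (log2 1.89, SE 0.71, edgeR adjusted p = 0.48). In the same gate the summed level of 8 B cell markers was 3741 and 3548 CPM in the control and 6058 and 7059 CPM in the EV libraries, and 17 early response genes of tissue dissociation summed to 857 and 1220 against 1448 and 1472 CPM. The parts of both in the Bcl3 count were not tested. Dendritic cells held 31.5 and 48.2 CPM of Bcl3 in the control and 92.9 and 57.8 CPM in the EV libraries (log2 0.86, SE 0.35, edgeR adjusted p = 0.51), with B cell markers at 2294, 1813, 2268 and 2199 CPM. The groups did not overlap in either class, as was true of 41.4% and 36.6% of all genes there.

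**Figure D2:**
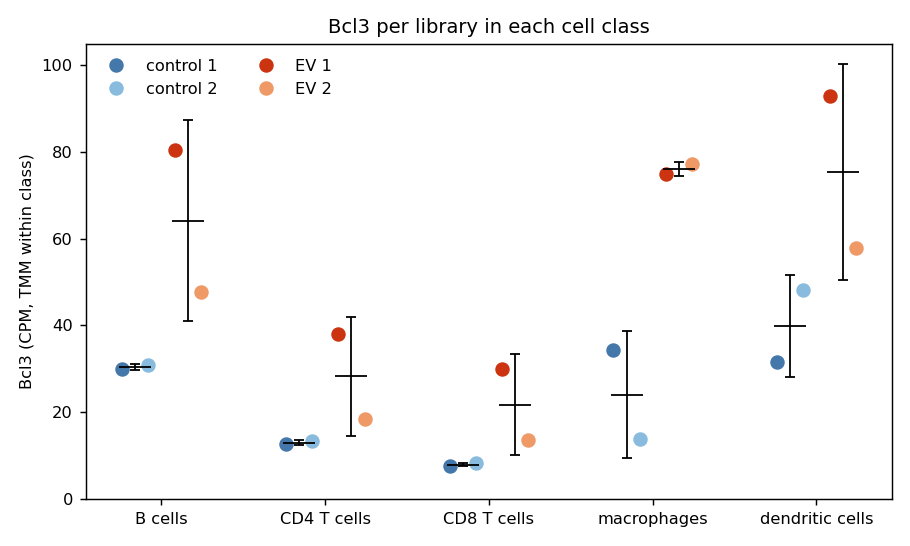
Bcl3 (CPM, TMM scaled within each class, linear axis from 0) per library in 5 cell classes; points are libraries, horizontal bars and whiskers the mean ± SD of 2 libraries per group. Both EV libraries lie above both control libraries in each class, and EV library 1 lies far above EV library 2 in B cells (80.5 against 47.7 CPM) and T cells.

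The difference was seen in parts of the classes too, given here as values without a test. Among CD4 T cells with a Foxp3 UMI, a marker of regulatory T cells, Bcl3 stood at 21.7 and 15.1 CPM in the control and 86.0 and 36.3 CPM in the EV libraries, on 16, 11, 43 and 19 UMIs. Among those without a Foxp3 UMI it stood at 11.9 and 13.2 against 33.9 and 17.6 CPM. B cells with a UMI of Ighd, which marks naive mature B cells, held 30.5 and 30.8 against 78.6 and 47.6 CPM. In the few B cells without one the groups overlapped, with 31.0 and 42.3 CPM in the control and 84.7 and 32.1 CPM in the EV libraries.

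Among the subunits, Nfkb1 was higher in EV in 4 classes without overlap, by amounts that did not pass the test in the main fit. The same held for 25.6%, 24.2%, 24.4% and 18% of all genes in B, CD4 T, CD8 T and dendritic cells. These classes come from the same 4 libraries. In B cells Nfkb1 stood at 274 and 277 CPM in the control and 319 and 359 CPM in the EV libraries (log2 0.30, SE 0.10, edgeR adjusted p = 0.16). CD4 T cells held 205 and 206 against 238 and 281 CPM (log2 0.34, SE 0.10, edgeR adjusted p = 0.14). CD8 T cells held 178 and 171 against 188 and 216 CPM, and dendritic cells 335 and 319 against 466 and 492 CPM (log2 0.21, SE 0.09, and 0.55, SE 0.25). Here EV library 2 was the higher of the EV libraries, the reverse of Bcl3. Without EV library 1, Nfkb1 was called in B (0.38, edgeR adjusted p = 0.00025), CD4 T (0.46, 1.4e-06) and CD8 T cells (0.31, 0.00029), and without EV library 2 the changes were 0.21, 0.21 and 0.11. Without the filter on low counts Nfkb1 was called in B and CD4 T cells (0.34 in both, edgeR adjusted p = 0.038 and 0.037). With the replicate block it was called in CD4 T cells (0.33, edgeR adjusted p = 0.042). The adjusted p over all alternatives ran up to 0.74, 0.77 and 0.75 in B, CD4 T and CD8 T cells. In macrophages the Nfkb1 groups overlapped (log2 −0.28, SE 0.37).

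Rel was called in no class in the main fit. B cells held 392 and 384 CPM in the control and 443 and 453 CPM in the EV libraries (log2 0.21, SE 0.10, edgeR adjusted p = 0.28), and the T cell groups overlapped, with log2 changes of 0.05 in CD4 and −0.07 in CD8 T cells. Dendritic cells held 403 and 464 CPM in the control and 598 and 536 CPM in the EV libraries, without overlap (log2 0.38, SE 0.26, edgeR adjusted p = 0.84), and the macrophage groups overlapped (log2 0.42, SE 0.37). With a library left out the B cell change of Rel lay between 0.19 and 0.23. Over all cells of a library, without gates, Rel was at 172 and 157 CPM in the control and 271 and 243 CPM in the EV libraries, a log2 ratio of the means of 0.64. The share of B cells, where Rel stood at 425 CPM against 84.2 and 67.8 CPM in T cells, was higher in the same libraries. In such a sum, more cells of a type and more RNA per cell cannot be told apart.

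Relb was higher in EV without overlap in B cells, at 86.5 and 77.6 against 93.9 and 96.8 CPM (log2 0.22, SE 0.09), and in CD4 T cells, at 38.4 and 35.0 against 41.9 and 52.0 CPM (log2 0.36, SE 0.12, edgeR adjusted p = 0.17). Its CD8 T cell and dendritic cell groups overlapped. Nfkb2 was lower in EV in B cells, at 56.3 and 54.6 against 47.7 and 47.7 CPM (log2 −0.22, SE 0.08, edgeR adjusted p = 0.20), and overlapped in the other 4 classes. Nfkb2 overlaps the genes Psd and AC114539.1 on the other strand, and Nfkb1 overlaps Gm43430 on its own strand. None of these differences was called in the main fit. With a library left out the change of Relb lay between 0.14 and 0.30 in B cells and between 0.20 and 0.52 in CD4 T cells. In CD4 T cells Relb was called with the replicate block (0.36, edgeR adjusted p = 0.033) and without the filter on low counts (0.37, edgeR adjusted p = 0.047).

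Of the inhibitors, Nfkbia was called in no class in the main fit, but its EV effect differed between B and CD8 T cells. In CD8 T cells it stood at 119 and 115 CPM in the control and 136 and 139 CPM in the EV libraries (log2 0.23, SE 0.08, edgeR adjusted p = 0.15). In B cells it stood at 219 and 231 against 225 and 195 CPM, with overlap (log2 −0.10, SE 0.10, edgeR adjusted p = 0.62). Tested as a difference of the EV effect in 1 fit over the 3 lymphocyte classes, with library as a block, B cells were below CD8 T cells by 0.35 on the log2 scale (SE 0.079, edgeR adjusted p = 0.037). This was the only member difference called between lymphocyte classes, 1 of 10 where 1.7% of 13907 genes were called for B minus CD8 T cells. For B minus CD4 T cells (1.92% of genes called) the Nfkbia difference was −0.31 (SE 0.081, edgeR adjusted p = 0.064), and for CD8 minus CD4 T cells (0.0863% called) it was 0.04. The call for B minus CD8 T cells was lost without control library 1 (−0.41, edgeR adjusted p = 0.097), control library 2 (−0.29, edgeR adjusted p = 0.34) or EV library 2 (−0.23, edgeR adjusted p = 0.18), and over its alternatives the adjusted p ran from 0.0011 to 0.34.

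In dendritic cells Nfkbia was at 393 and 512 CPM in the control and 780 and 699 CPM in the EV libraries, from 162, 329, 428 and 460 UMIs (log2 0.70, SE 0.26, edgeR adjusted p = 0.45). The groups did not overlap. Nfkbia is also induced when tissue is dissociated, and the summed level of 17 early response genes of dissociation was 1130 and 1232 CPM in the control and 1366 and 1431 CPM in the EV libraries of dendritic cells. Its part in the Nfkbia difference was not tested. The sum was also higher in EV macrophages, at 857 and 1220 against 1448 and 1472 CPM, and it overlapped between the groups in B, CD4 T and CD8 T cells. Nfkbia in CD4 T cells stood at 134 and 150 against 171 and 156 CPM (log2 0.20, SE 0.10, edgeR adjusted p = 0.33). With a library left out the change of Nfkbia lay between 0.12 and 0.29 in CD4 T cells and between 0.21 and 0.25 in CD8 T cells. Nfkbie changed by −0.11 (SE 0.09) in B cells, 0.09 (SE 0.12) in CD8 T cells and 0.00 (SE 0.16) in CD4 T cells on the log2 scale.

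The nuclear IκB genes other than Bcl3 moved little. Nfkbid was at 26.2 and 26.8 CPM in the control and 30.8 and 33.3 CPM in the EV libraries of CD4 T cells (log2 0.28, SE 0.11, edgeR adjusted p = 0.24), and its groups overlapped in B, CD8 T and dendritic cells. In macrophages it was not tested, with 3, 12, 11 and 2 UMIs. Nfkbiz, which encodes IκBζ, a co-activator of inflammatory genes in myeloid cells, overlapped between the groups in all 5 classes. Its log2 changes lay between −0.23 in macrophages and dendritic cells and 0.16 in CD8 T cells. With a library left out the change of Nfkbid in CD4 T cells lay between 0.22 and 0.34. That of Nfkbiz lay between −0.19 and 0.35 in CD4 T cells and between −0.045 and 0.35 in CD8 T cells.

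Tnfaip3, the ubiquitin-editing feedback inhibitor, had a negative log2 change in every class and was called in none in the main fit. In macrophages the sign turned without control library 2 (0.68) or EV library 1 (0.04). In B cells it stood at 22.9 and 22.8 CPM in the control and 20.9 and 17.7 CPM in the EV libraries (log2 −0.24, SE 0.11, edgeR adjusted p = 0.29). CD4 T cells held 58.2 and 82.1 against 62.8 and 45.5 CPM (log2 −0.39, SE 0.17, edgeR adjusted p = 0.29). CD8 T cells held 62.3 and 78.3 against 65.1 and 45.7 CPM (log2 −0.36, SE 0.14, edgeR adjusted p = 0.22). Both T cell comparisons overlapped, with EV library 2 lowest and control library 2 highest. With the replicate block Tnfaip3 was called in CD4 T (−0.39, edgeR adjusted p = 0.0082) and CD8 T cells (−0.36, 0.0016). It was also called there without the filter on low counts (−0.39 and −0.35, edgeR adjusted p = 0.016 and 0.014). With a library left out the changes of Tnfaip3 ran from −0.63 to −0.10 in CD4 T and from −0.62 to −0.12 in CD8 T cells. In B cells they ran from −0.37 to −0.13. The adjusted p over all alternatives ran up to 0.90 in CD4 T and 0.86 in CD8 T cells.

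**Figure D3:**
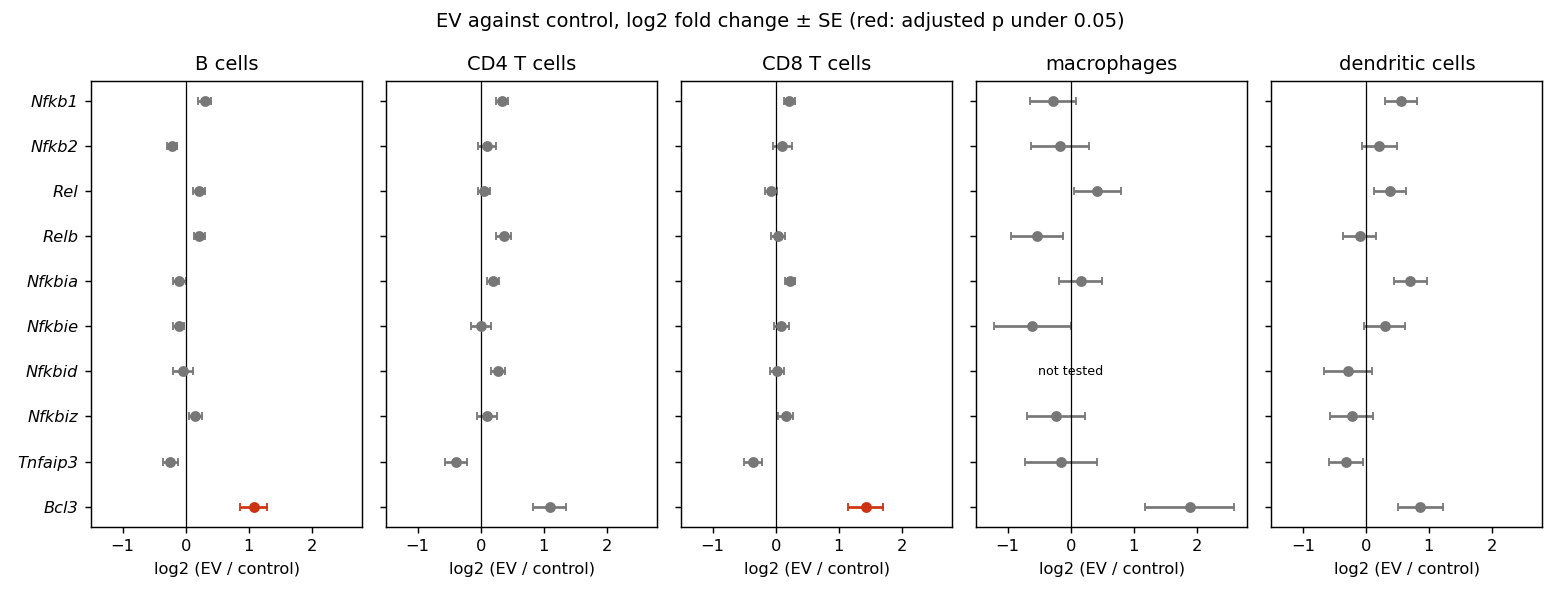
Log2 ratio of EV to control (x axis) for the 10 genes (y axis) in 5 cell classes, from edgeR with 2 libraries per group; whiskers are ± SE and red marks an adjusted p under 0.05. Bcl3 lies furthest to the right in every class, between 0.86 in dendritic cells and 1.89 in macrophages, and is red in B cells (1.08) and CD8 T cells (1.43).

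The members' median log2 change was 0.06 in B, 0.15 in CD4 T, 0.10 in CD8 T and 0.26 in dendritic cells and −0.17 in the 9 tested in macrophages, whereas the median of all genes lay between −0.01 and 0.00 in every class. Higher without overlap were 4, 5, 4, 4 and 1 members in B, CD4 T, CD8 T and dendritic cells and macrophages, beside 25.6%, 24.2%, 24.4%, 18% and 20.9% of all genes. Lower without overlap were the 3 members Nfkb2, Nfkbie and Tnfaip3 in B cells (26.2% of all genes) and 0 in CD4 T, CD8 T and dendritic cells and macrophages (25.2%, 25.3%, 18.6% and 20.4%).

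The rest of the pathway was described from 84 further genes in 6 lists, also chosen with earlier results of these data known. Of these genes, 74, 67, 68, 38 and 62 were tested in B, CD4 T and CD8 T cells, macrophages and dendritic cells. In B cells 3 rose and 3 fell (2.55% of all genes were called, and DESeq2 called 10 of the list), in CD4 and CD8 T cells 1 rose each (1.09% and 2.2% of all genes, and DESeq2 called 1 each), and in macrophages and dendritic cells edgeR and DESeq2 called 0, with 3 and 6 at an unadjusted p under 0.05 (9.04% and 7.65% of all genes). The 2 genes most tied to the members, the subunit gene Rela and the inhibitor gene Nfkbib, were not called in any class in which they were tested and had log2 changes between −0.11 and 0.24. None of the receptor or other negative regulator genes was called. With an unadjusted p under 0.05 were 4, 3, 2, 0 and 0 receptor genes and 3, 2, 1, 0 and 0 other negative regulators in B, CD4 T and CD8 T cells, macrophages and dendritic cells, beside 18.9%, 16.7%, 18.2%, 9.04% and 7.65% of all genes, and the list medians lay between −0.10 and 0.23.

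Target genes of NF-κB on the list included the clearest rises. Cd83, a surface molecule of activated B cells and mature dendritic cells, rose in B cells from 301 and 275 CPM to 619 and 720 CPM (log2 1.21, SE 0.12, edgeR adjusted p = 0.0035), and it stayed called under each alternative. Icam1, an adhesion molecule for leukocyte contacts, rose in B cells from 30.0 and 33.2 to 46.0 and 41.9 CPM (log2 0.48, SE 0.10, edgeR adjusted p = 0.045). It also rose in CD8 T cells, from 27.6 and 34.5 to 51.8 and 49.5 CPM (log2 0.70, SE 0.11, edgeR adjusted p = 0.0080). The Icam1 calls were lost in cells thinned to 1000 UMIs (B cells log2 0.32 with edgeR adjusted p = 0.33, CD8 T cells 0.26 with 0.73). In B cells the call was also lost with stricter gates (log2 0.43, edgeR adjusted p = 0.058) and with doublets removed (0.47, 0.056). It was lost there without control library 1 or 2 as well (log2 0.41 and 0.55). The range of the adjusted p over all alternatives was 7.4e-05 to 0.36 (B cells) and 6.9e-11 to 0.73 (CD8 T cells). Irf4, a transcription factor of activated B cells and plasma cell formation, fell in B cells from 224 and 178 to 134 and 138 CPM (log2 −0.57, SE 0.11, edgeR adjusted p = 0.044), a call that was lost without control library 1 (−0.39, edgeR adjusted p = 0.45) or 2 (−0.71, edgeR adjusted p = 0.055), within a range of 3.6e-06 to 0.45 over all alternatives. The median of the 21 target genes tested in B cells was 0.35, and 18 of them were above 0. In CD4 and CD8 T cells, macrophages and dendritic cells the medians were 0.14, 0.13, −0.31 and 0.27.

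In dendritic cells the target genes with the smallest p were Cd86, a costimulatory ligand, at 82.5 and 76.2 CPM in the control and 266 and 134 CPM in the EV libraries (log2 1.33, SE 0.31, edgeR adjusted p = 0.079), and the chemokine gene Ccl5 (log2 0.97, SE 0.30, edgeR adjusted p = 0.26). Ccnd2 and Cd83 had changes of 1.34 (SE 0.49) and 0.70 (SE 0.26). In macrophages Ccl5 was at 1958 and 617 CPM in the control and 275 and 108 CPM in the EV libraries (log2 −2.67, SE 0.53, edgeR adjusted p = 0.25). In this gate dendritic markers summed to 1442 CPM in control library 1 and 402 to 475 CPM in the others, and NK markers to 14.3 and 401 CPM in the control and 0 in both EV libraries, and their part in the Ccl5 values was not tested. Cd83 had a change of 1.22 (SE 0.42) there, Malt1 of 0.95 (SE 0.41), Prkcb of 0.56 (SE 0.26) and Tnfsf13 of −0.95 (SE 0.56). None of these was called. Beside them, 8 B cell markers in this gate summed to 3741 and 3548 CPM in the control and 6058 and 7059 CPM in EV. The part of B cell transcripts in these changes was not tested. Some T cell genes were not called but had the smallest p among the rest, given here as log2 changes. They were Ripk1 (0.45), Tnip2 (0.83), Icam1 (0.66) and Traf3 (0.35) in CD4 T cells (edgeR adjusted p from 0.064 to 0.19). In CD8 T cells they were Ccl5 (0.42), Irak4 (0.29), Tnf (−0.52) and Map3k7 (−0.24) (edgeR adjusted p from 0.14 to 0.18).

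Among ligands, Tnf fell in B cells from 14.1 and 14.0 to 7.60 and 7.40 CPM (log2 −0.91, SE 0.13, edgeR adjusted p = 0.014). Among kinases and adaptors, Prkcq, the protein kinase C of T cell receptor signaling, fell in B cells from 14.8 and 13.1 to 6.26 and 6.41 CPM (log2 −1.14, SE 0.14, edgeR adjusted p = 0.0075). Beside these, the summed level of 8 T cell markers in the B cell gate was 161 and 143 CPM in the control and 78.0 and 80.9 CPM in the EV libraries, and T cells held between 809 and 1085 CPM of Prkcq. With doublets removed, the Prkcq change was −0.57 and no longer called (edgeR adjusted p = 0.16, range over all alternatives 6.5e-10 to 0.16), while Tnf missed the threshold only in thinned cells (−0.81, edgeR adjusted p = 0.063, range 1.4e-06 to 0.063). Il1b rose in B cells from 0.50 and 0.07 to 4.55 and 1.95 CPM (log2 3.47, SE 0.67, edgeR adjusted p = 0.039), while in the same cells 4 neutrophil markers summed to 0.44 and 0.15 against 3.79 and 8.66 CPM and 4 monocyte markers to 44.1 and 46.8 against 95.3 and 54.3 CPM. The Il1b call was lost with doublets removed (3.43, edgeR adjusted p = 0.052) and without control library 2 (2.70, edgeR adjusted p = 0.077), within a range of 6.2e-15 to 0.077. The parts of T cell, neutrophil and monocyte transcripts in these values were not tested further. In dendritic cells Il1b stood at 19.4 and 6.22 CPM in the control and 208 and 15.2 CPM in EV libraries 1 and 2, so that the groups overlapped. Monocyte markers in the dendritic gate summed to 2085 CPM in EV library 1 and to 913, 751 and 557 CPM in control libraries 1 and 2 and EV library 2, and their part in the Il1b and Cd86 values was not tested. The median change of the ligands was −0.58 in B cells, −0.20 in CD4 T, −0.52 in CD8 T cells, −0.40 in macrophages and 1.53 in the 2 tested in dendritic cells.

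Malt1, the paracaspase that links antigen receptors to NF-κB, rose in CD4 T cells from 164 and 172 to 260 and 222 CPM (log2 0.52, SE 0.10, edgeR adjusted p = 0.038). The call was lost without control library 1 (0.48, edgeR adjusted p = 0.35) or 2 (0.56, edgeR adjusted p = 0.14), within a range of 2.3e-11 to 0.35 over all alternatives. In B cells it was higher without overlap, at 320 and 343 against 405 and 483 CPM, and missed the threshold (log2 0.42, SE 0.12, edgeR adjusted p = 0.099). In CD8 T cells its groups overlapped (log2 −0.09, SE 0.09). The medians of the kinases and adaptors were 0.06, 0.07, 0.03, 0.12 and 0.03 in B, CD4 T, CD8 T cells, macrophages and dendritic cells.

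**Figure D4:**
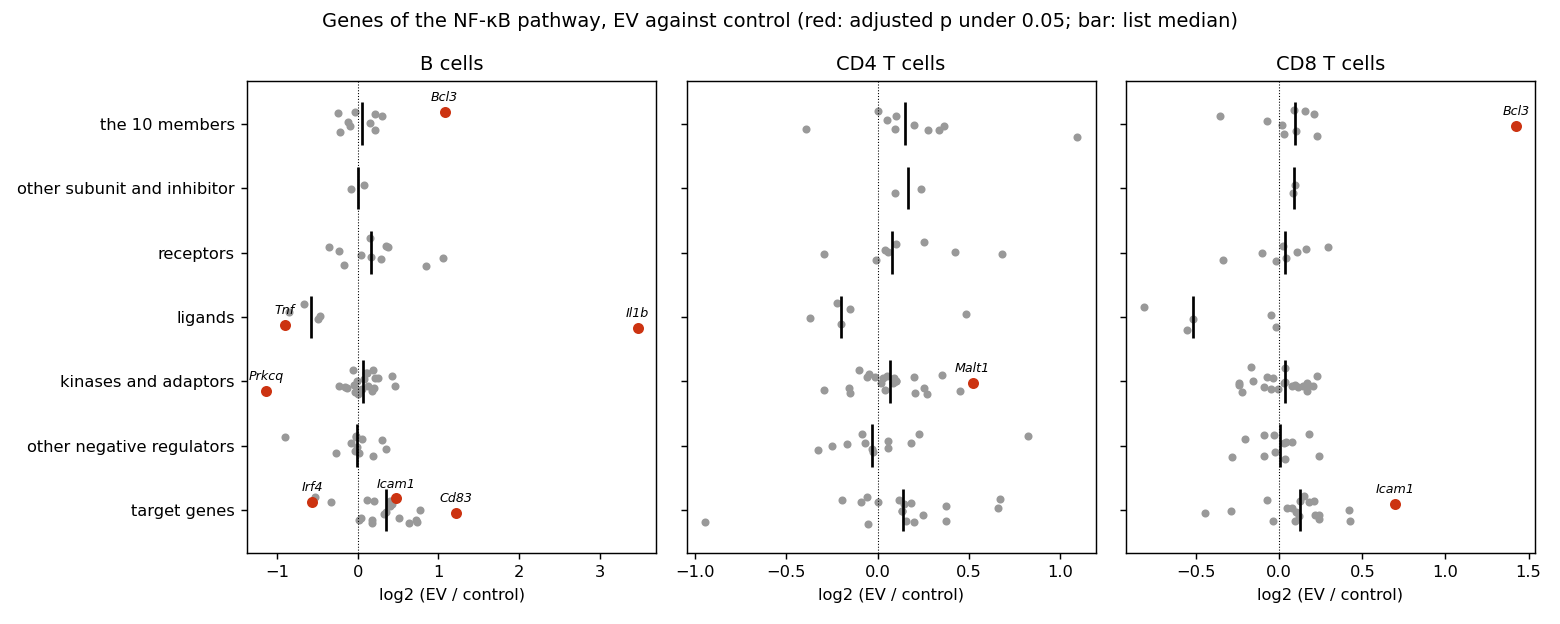
Log2 ratio of EV to control (x axis) for every tested gene of the 10 members and 6 further lists of the NF-κB pathway (y axis) in B, CD4 T and CD8 T cells; each point is 1 gene, black bars are list medians and named red points passed an adjusted p under 0.05. Bcl3 is the red point among the members in B and CD8 T cells, and the x axes of the 3 panels differ in range, since Il1b reached 3.47 in B cells.

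Outside the lists, the genes whose log2 CPM over the 20 sums of class and library was most like the mean of the 10 members included Map3k20, Dennd5a, Rufy3 and Adap1, with Pearson's r between 0.954 and 0.965. The 20 points are 5 classes of the same 4 libraries, so these values are a description of levels across classes. These 4 genes were highest in dendritic cells, from 50.3 CPM for Map3k20 to 177 CPM for Dennd5a, and Map3k20 and Adap1 were under 4 CPM in T cells.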

How the data were processed

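Lymph node cells of 2 control and 2 EV samples were profiled by 10x single-cell RNA sequencing. The authors deposited filtered matrices of UMI counts per gene and cell. The submitters' processing notes name Cell Ranger 7.1.0 and mm10, and the annotation release and the treatment of intronic reads are not given in the sources used here. The matrices were used as deposited. Cells with 200 to 5000 genes, at most 20000 UMIs and under 10% mitochondrial UMIs were kept, and raw counts were summed per library and marker gate. Doublets were kept, except in an alternative that used Scrublet at an expected rate of 6%.

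EV and control sums were compared within each class by edgeR's quasi-likelihood test (edgeR 4.0.16, limma 3.58.1, R 4.3.3) with TMM scaling, the filterByExpr filter on low counts and Benjamini-Hochberg adjustment over all genes tested, at a threshold of 0.05. Differences between classes came from edgeR fits over several classes with library as a block. No test across cells, which are not replicates, was used. The study names 2 biological replicates per group. Total depth was 50749656 to 70418672 UMIs per library, and counts of a few UMIs, as in the macrophage gate, carry a large counting error. The scripts were tested on simulated data (Python 3.11.15, numpy 2.4.6, scipy 1.17.1, pandas 2.3.3, scanpy 1.11.5, matplotlib 3.10.9).

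The text names all 10 members, the genes of 6 pathway lists that were called in a class, the 5 with the smallest unadjusted p per class, and the 5 genes outside the lists most correlated with the members' mean, of which 1 is not reported here. The members and lists were chosen with earlier results of these data known. Alternatives were DESeq2 1.42.0, its size factors in edgeR, library sizes without ribosomal, mitochondrial and related genes, no filter on low counts, the replicate number as a block, cells thinned to 1000 UMIs, a mitochondrial limit of 5% with no upper limits on genes and UMIs, a ribosomal limit of 60%, exclusive and stricter gates, doublet removal, and each library left out in turn. Promoter sequences came from RefSeq (GRCm38.p6) and gene positions from GENCODE (GRCm38), the build also called mm10.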

Additional observations from a re-analysis of the deposited data

Results flagged for a closer look

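Among the members and the pathway genes called within a class, the EV effect differed between lymphocyte classes for 5 genes by a test of the difference itself (edgeR, 1 fit over B, CD4 T and CD8 T cells with library as a block, n = 2 libraries per group). The member among them was Nfkbia, whose EV effect in B cells minus that in CD8 T cells was −0.35 on the log2 scale (edgeR adjusted p = 0.037).

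Prkcq differed by −1.41 between B and CD4 T cells (edgeR adjusted p = 6.1e-07) and by −1.37 between B and CD8 T cells (edgeR adjusted p = 6.8e-07), with changes of −1.14 in B, 0.27 in CD4 and 0.23 in CD8 T cells. T cell markers in the B cell gate summed to 161 and 143 CPM in the control and 78.0 and 80.9 CPM in the EV libraries. With doublets removed the B cell change of Prkcq was −0.57 and not called (edgeR adjusted p = 0.16). The difference between classes was not tested with doublets removed. Cd83 differed by 0.85 between B and CD4 T cells (edgeR adjusted p = 0.016) and by 0.96 between B and CD8 T cells (edgeR adjusted p = 0.0096), with changes of 1.21, 0.38 and 0.24. The Cd83 call against CD4 T cells was lost without control library 1 (0.93, edgeR adjusted p = 0.096), control library 2 (0.75, 0.21) or EV library 2 (0.63, 0.19) and in cells thinned to 1000 UMIs (1.20, 0.50). The call against CD8 T cells was lost without control library 1 (0.83, edgeR adjusted p = 0.17) and in thinned cells (0.0022), where T cells held under 10 CPM of Cd83 in every library. Irf4 differed by −0.92 between B and CD4 T cells (edgeR adjusted p = 0.012), a call lost without control library 1 (−0.70, edgeR adjusted p = 0.23) and in thinned cells (−1.16, 0.15). Malt1 differed by 0.50 between B and CD8 T cells (edgeR adjusted p = 0.027), with changes of 0.42 and −0.09, and this call was lost without control library 1 (0.49, edgeR adjusted p = 0.24) or 2 (0.51, 0.20).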

How the results depend on the processing

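A library left out leaves a group with 1 library, whose spread is assumed to be like the others'. Members called in B cells were 0 by DESeq2 (459 of 13270 genes called) and with doublets removed (239 of 13210). They were 2 without the filter on low counts (1392 of 21630). In CD4 T cells they were 4 without the filter (773 of 19885 genes), 4 with the replicate block (788 of 11933) and 1 with stricter gates (191 of 11706). In CD8 T cells they were 0 by DESeq2 (162 of 12284 genes) and at the mitochondrial limit of 5% (120 of 12430). They were 2 without the filter (857 of 20198) or with the replicate block (1018 of 12284). Genes called in B cells were 1392 without the filter, 1182 with the block, 688 at the 5% limit and 97 to 2584 with a library left out, beside 338. In CD4 T cells they were 773, 788 with the block and 94 to 2077, beside 130. In CD8 T cells they were 857, 1018 with the block, 162 by DESeq2, 123 in thinned cells, 120 at the 5% limit and 187 to 2168, beside 270. In macrophages they were 4 by DESeq2, 1 with its size factors, 65 without the filter, 53 with the block, 2 with exclusive gates and 15 to 86, beside 0. In dendritic cells they were 4 by DESeq2, 95 without the filter, 1 with the block, 7 at the 5% limit and with exclusive gates, 0 in thinned cells, with stricter gates or with doublets removed, and 13 to 167, beside 11. Without the filter the member differences called were 1 for B minus CD4 T and 2 for B minus CD8 T cells, and in thinned cells 0 for the latter. The shares of all genes called in these fits are not given here. The cause of these moves was not tested. The deviations of samples with the same replicate number had r between −0.017 and 0.135 over genes (2 pairs). With 2 libraries per group the deviations within a group mirror each other, so this r cannot decide whether the numbers pair the samples. Log2 changes that turned sign, none of them called, were in thinned cells Nfkbiz (−0.015 in B, −0.058 in CD4 T), Nfkbie in CD4 T (−0.18), Nfkbid in CD8 T (−0.089) and Relb in dendritic cells (0.011), and the Nfkbia (−0.074, CD8 minus CD4 T) and Bcl3 (0.33, B minus CD4 T) differences. Without the filter Nfkbid in B cells was 0.0029 and this Bcl3 difference 0.020. At the 5% limit Nfkbie in CD4 T was −0.013, Relb and Nfkbid in CD8 T −0.015 and −0.014, and Rel in macrophages −0.047. With stricter gates Nfkbie in CD4 T was −0.045, and Nfkb1, Nfkb2 and Relb in macrophages 0.22, 0.37 and 0.72. With exclusive gates Rel in macrophages was −0.65, and with doublets removed Nfkbie in CD4 T was −0.00057. With a library left out the ranges that crossed 0 were, in B cells, Nfkbid −0.25 to 0.19. In CD4 T cells they were Nfkbie −0.14 to 0.15 and Nfkbiz −0.19 to 0.35. In CD8 T cells they were Nfkb2 −0.096 to 0.31, Rel −0.18 to 0.037, Relb −0.15 to 0.19, Nfkbid −0.041 to 0.074 and Nfkbiz −0.045 to 0.35. In macrophages they were Nfkb1 −0.57 to 0.27, Nfkb2 −0.61 to 0.13, Nfkbia −0.15 to 0.43, Nfkbie −1.28 to 0.59, Nfkbiz −0.72 to 0.14 and Tnfaip3 −0.44 to 0.68. In dendritic cells they were Relb −0.28 to 0.070, Nfkbie −0.20 to 0.69, Nfkbid −0.79 to 0.32 and Nfkbiz −0.54 to 0.10. The differences ranged from −0.078 to 0.14 for Nfkbia and −0.15 to 0.12 for Bcl3.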

Other observations

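Among CD4 T cells, Nfkb1, Nfkb2, Rel, Nfkbia, Nfkbiz, Tnfaip3 and Bcl3 were higher in those with a Foxp3 UMI than in those without one in each of the 4 libraries, values that were not tested. For example, CD4 T cells with a Foxp3 UMI held 134, 180, 178 and 118 CPM of Nfkbiz in control libraries 1 and 2 and EV libraries 1 and 2, against 63.6, 76.6, 89.8 and 63.9 CPM in those without one. Nfkbia stood at 233, 230, 318 and 191 CPM against 127, 144, 157 and 155 CPM. The number of Foxp3 cells was 95, 93, 54 and 65. Nfkb2 rested on 20, 15, 11 and 12 UMIs in them. In EV library 2 the gaps were small for Nfkb1 (292 against 282 CPM), Rel (85.9 against 79.5) and Tnfaip3 (49.6 against 45.5). Relb, Nfkbie and Nfkbid were not higher with a Foxp3 UMI in every library. The share of all genes higher in each library was not computed, so these values do not set the members apart from other genes.

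Other pathway genes differed in their EV effect between lymphocyte classes without being called within a class. Ltb encodes the lymphotoxin beta ligand. Its EV effect in B cells minus that in CD4 T cells was −0.33 (edgeR adjusted p = 0.0011, n = 2 libraries per group). For B minus CD8 T cells it was −0.46 (edgeR adjusted p = 4.7e-05). For Pim1, Otulin, Ccr7 and Birc2 the EV effect in B minus that in CD4 T cells was 0.60, 0.35, 0.35 and 0.35. The edgeR adjusted p were 0.0064, 0.016, 0.032 and 0.050. Of all 13907 genes, 1.92% were called for B minus CD4 T and 1.7% for B minus CD8 T cells. Alternatives are not given for these genes.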
